A study of Rattus norvegicus with 48 samples.

Results

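The genes of 2 rotary proton pumps were followed in cerebral endothelial cells (CECs), the mitochondrial ATP synthase and the vacuolar ATPase (V-ATPase). Members were taken as every gene whose symbol starts with Atp5 or Atp6 and that was read at least once in all 12 samples, which gave 34 genes, 16 Atp5 and 18 Atp6, of 13050 genes tested, of which 2043 had a symbol here. CECs came from the cortex of male Wistar-Han rats with free access to food (AL rats) or after a fast of 1 day (F1 rats), 2 days (F2 rats) or 3 days (F3 rats), with no other treatment, by depletion of CD11b-positive cells and positive selection of CD31-positive cells. Cortical tissue of several rats was pooled in each isolation, so that a sample is not a single animal. The study's methods name 3 independent experiments as biological replicates. Which samples of different groups came from the same experiment is not given in the sources used here. There were 3 samples per group, named here by the letters i, j and k, each sequenced as 4 technical replicates that were summed.

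The 12 samples held between 20718644 and 25960874 reads assigned to genes. The endothelial markers Pecam1, Abcb1a and Abcg2 summed to between 127528 and 146843 normalized counts (counts scaled to a common library size) in a sample. Over all groups the sums were 1689 to 4744 for 3 mural markers, 4465 to 10458 for 3 astrocyte markers, 56.7 to 134 for 6 microglial markers, 3.04 to 14.7 for the neuronal marker Camk2b, 15.6 to 34.1 for the oligodendrocyte marker Aspa and 36.1 to 110 for the red blood cell marker Alas2, and none of these 18 genes passed the test in any comparison. Sample j of the F2 rats stood apart from the others. Compared by a chi-square per degree of freedom over genes, it differed from F2 samples i and k by 48.8 and 51.5, whereas the other pairs of samples from 1 group differed by 9.75 to 24.8. It held the highest of the 12 values in 20.1% of all genes and the lowest in 20.9%. Its marker sums lay within the range of the other 11 samples for each of the 7 lists. Where a result turns on it, the value without it is given as well.

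ATP synthase sits in the inner mitochondrial membrane and lets protons flow back into the matrix, which turns a ring of c subunits and drives ATP synthesis in the catalytic head. V-ATPase works in the other direction: its cytosolic V1 sector splits ATP and turns a ring in the membrane-bound V0 sector, which pumps protons into lysosomes, endosomes and secretory vesicles. Brain endothelial cells are known for a high content of mitochondria, and they sort transcytosed cargo through acidified endosomes. Each pump is built from subunits in fixed proportions, and some V-ATPase subunits exist as isoforms that differ between tissues and compartments.

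Among the 34 members, fasting was accompanied by a lower level of Atp6v0a1 after 1 and 3 days and of Atp5j after 3 days, and by no rise that passed the test. A gene was called differentially expressed at an adjusted p of at most 0.05 over all genes tested, with edgeR's quasi-likelihood test. In F1 rats 1 of 34 members was called, against 6.56% of all genes, and it was lower, as were 2.69% of all genes. In F3 rats 2 of 34 members were called, against 12% of all genes, and both were lower, as were 5.77% of all genes. In F2 rats no member was called against AL rats by edgeR, beside 0.858% of all genes. With edgeR 1 member had an unadjusted p under 0.05, beside 1675 of 13050 genes. DESeq2 called 1 member, Atp6v0a1, beside 2.75% of all genes. The joint test of the 4 groups called 1 member, Atp6v0a1, and 10.1% of all genes with edgeR, and 2 members and 16% of all genes with DESeq2. The share of members called was thus below that of all genes in F1 and F3 rats and in the joint test, and close to it where only lower genes are counted.

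The promoters of the 2 called members are shown as the 250 bases before the RefSeq transcription start on build GRCr8. The stretch of Atp6v0a1 is chr10:86435891-86436140 on the plus strand and that of Atp5j, which RefSeq names Atp5pf, is chr11:37375102-37375351 on the minus strand. Capitals mark AAGATGGCG, the core of motifs bound by YY1, and, in Atp5j, also CCGGAAG, a core of sites for ETS factors.
Atp6v0a1: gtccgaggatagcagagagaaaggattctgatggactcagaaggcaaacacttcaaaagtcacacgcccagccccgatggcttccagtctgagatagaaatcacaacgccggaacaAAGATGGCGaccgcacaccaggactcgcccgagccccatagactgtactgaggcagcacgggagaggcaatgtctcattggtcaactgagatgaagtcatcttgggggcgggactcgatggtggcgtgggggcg
Atp5j: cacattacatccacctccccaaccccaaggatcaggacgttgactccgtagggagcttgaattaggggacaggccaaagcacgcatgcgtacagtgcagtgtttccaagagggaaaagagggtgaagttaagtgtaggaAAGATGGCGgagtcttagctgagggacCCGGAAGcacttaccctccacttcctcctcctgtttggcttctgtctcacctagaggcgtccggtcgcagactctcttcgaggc

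Both promoters carry AAGATGGCG on the printed strand, at bases -134 to -126 of Atp6v0a1 and -111 to -103 of Atp5j, counted back from the start. This motif was added to the search after both sequences had been seen. With 50 bases after the start included and both strands searched, it occurred in 1.73% of 33469 promoters and in 4 of the 28 member promoters that had an entry, those of Atp5j, Atp5j2, Atp6v0a1 and Atp6v0c. The ETS core CCGGAAG occurred in 8.75% of all promoters and in 6 of 28 members, 4 Atp5 and 2 Atp6. The NRF1 core GCATGCGC occurred in 2.47% of all promoters and in 5 members, Atp5g2, Atp5i, Atp5l, Atp5o and Atp6v0d1. The E-box CACGTG, which is part of the element recognised by TFEB in lysosomal genes, occurred in 6.42% of all promoters and in 5 members, Atp5g1, Atp5g3, Atp5l, Atp6v0d1 and Atp6v0e1. The letters TGACGTCA, found in 1.83% of all promoters, were in none of the 28. Atp6v0a1 thus shared with Atp5j only the first of these 5 motifs. These matches describe sequence and were not related to the measured levels.

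Atp6v0a1 encodes the a1 isoform of the large V0 subunit, which holds the proton half-channels and helps to determine the membrane to which the pump is sent. In AL rats its normalized counts were 11029, 10893 and 10798 in samples i, j and k (10907 ± 116, SD, n = 3). They were 8365, 7660 and 8445 in F1 rats (8157 ± 432), 7878, 8536 and 9371 in F2 rats (8595 ± 749) and 6356, 7396 and 7366 in F3 rats (7039 ± 592). Every fasted sample was below every AL sample, and every F3 sample was below every F1 and F2 sample. The Log2 fold change (LFC) against AL rats was -0.42 ± 0.08 in F1 rats (SE, adjusted p = 0.0105, edgeR), -0.34 ± 0.08 in F2 rats (adjusted p = 0.0789, edgeR) and -0.63 ± 0.08 in F3 rats (adjusted p = 0.000395, edgeR). The mean level was therefore 25.2%, 21.2% and 35.5% under that of AL rats, with only the first and the last past the threshold. Between F2 and F3 rats the LFC was -0.29 ± 0.08 (adjusted p = 0.0618, edgeR), and between F1 and F2 rats it was 0.08 ± 0.08 (adjusted p = 0.699, edgeR), with a 95% interval of -0.11 to 0.26. Without F2 sample j the LFC was -0.34 ± 0.09 for F2 against AL rats (adjusted p = 0.0934, edgeR) and -0.29 ± 0.09 for F3 against F2 rats (adjusted p = 0.0735, edgeR).

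The lower level in F3 rats passed the threshold under all 21 alternatives tried, with adjusted p from edgeR or DESeq2 between 9.11e-11 and 0.00314. The lower level in F1 rats passed under 20 of 21 and was lost without F1 sample j (adjusted p = 0.0659, edgeR). For F2 against AL rats DESeq2 gave an adjusted p of 0.00695, where edgeR did not pass. F3 against F2 rats passed with DESeq2 (adjusted p = 0.0157) and, with edgeR, without F2 sample i (adjusted p = 0.0435). RefSeq lists neither a pseudogene of Atp6v0a1 nor a gene that overlaps it. Over the 12 samples the mural marker sum ran from 1689 to 4744 and the astrocyte marker sum from 4465 to 10458. The neuronal marker Camk2b ran from 3.04 to 14.7. Whether other cell types bear on the level of Atp6v0a1 was not tested. In these bulk samples, fewer cells of a type and less RNA per cell cannot be told apart.

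**Figure D1:**
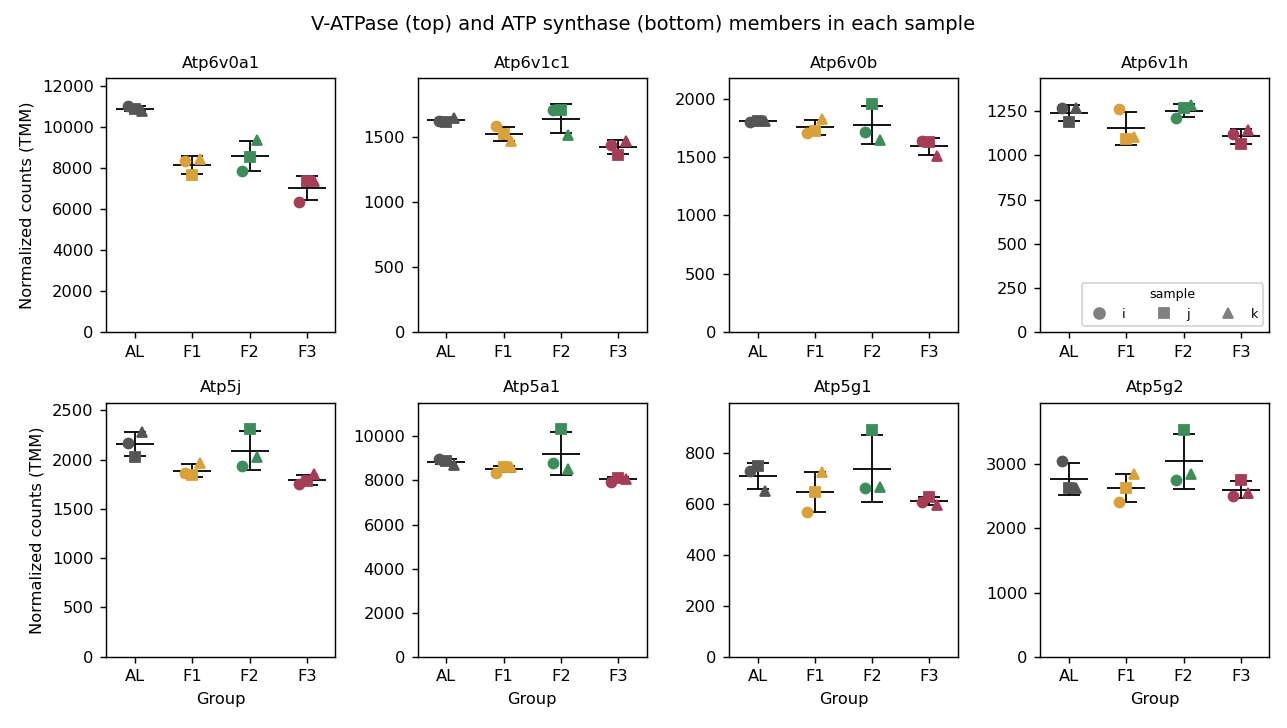
Normalized counts (vertical axes, starting at 0) of 4 V-ATPase members (top) and 4 ATP synthase members (bottom) in AL, F1, F2 and F3 rats, with 1 point per sample and a different symbol for samples i, j and k; bars show the mean ± SD of 3 samples. Atp6v0a1 was between 10798 and 11029 in AL rats and at most 9371 in fasted rats, and F2 sample j was the highest point in the Atp5 panels.

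Atp5j encodes coupling factor F6, a part of the peripheral stalk that keeps the catalytic head of ATP synthase from turning with the rotor. Its normalized counts were 2169, 2029 and 2274 in AL samples (2158 ± 123, SD, n = 3), 1863, 1843 and 1961 in F1 samples (1889 ± 63), 1932, 2310 and 2027 in F2 samples (2090 ± 197) and 1751, 1781 and 1853 in F3 samples (1795 ± 52). F1 and F3 samples were all below the AL samples, whereas F2 samples overlapped them, with F2 sample j above all others. The LFC against AL rats was -0.19 ± 0.08 in F1 rats (adjusted p = 0.165, edgeR), -0.05 ± 0.08 in F2 rats (adjusted p = 0.844, edgeR) and -0.27 ± 0.08 in F3 rats (adjusted p = 0.0365, edgeR), a mean 16.8% lower after 3 days.

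The call for Atp5j in F3 rats was close to the threshold. It held in 13 of 21 alternatives and was lost with upper-quartile scaling (adjusted p = 0.0553, edgeR), without the filter on low counts (0.0566), and when AL sample i, AL sample k, F1 sample j or any of the F3 samples i, j and k was left out (adjusted p = 0.112, 0.136, 0.0527, 0.132, 0.0964 and 0.0756 in that order, edgeR). Without F2 sample j, Atp5j also passed in F1 rats (adjusted p = 0.0459, edgeR), and its LFC in F2 against AL rats was -0.12 ± 0.06 (adjusted p = 0.411, edgeR). RefSeq lists 4 pseudogenes of Atp5j, to which reads could have matched more than once and been removed by the authors, and the gene Gabpa overlaps it. The strand setting of the read counting is not given in the sources used here, so that reads of the overlap could not be assigned with certainty.

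The other 15 Atp5 genes did not pass the test in any comparison. The 5 genes of the catalytic head and its central shaft, Atp5a1, Atp5b, Atp5c1, Atp5d and Atp5e, had LFCs from -0.14 to -0.01 in F3 rats. Their median was -0.03. Atp5a1, the alpha subunit, had 8961, 8862 and 8715 normalized counts in AL samples, 8349, 8614 and 8603 in F1 samples, 8779, 10342 and 8528 in F2 samples and 7937, 8108 and 8086 in F3 samples. The F3 samples lay below all others, with an LFC of -0.14 ± 0.08 against AL rats (adjusted p = 0.293, edgeR; 95% interval -0.30 to 0.03) and -0.20 ± 0.08 against F2 rats (adjusted p = 0.151, edgeR), the latter -0.11 ± 0.06 without F2 sample j (adjusted p = 0.349, edgeR). Atp5b, the catalytic beta subunit, had LFCs of -0.02 in both F1 and F3 rats, and its LFC in F2 rats was 0.14 (adjusted p = 0.529, edgeR), or 0.04 without F2 sample j.

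The other stalk genes among the members were Atp5h (subunit d) and Atp5o (the oligomycin sensitivity-conferring protein). They were 8.1% and 9.5% under their AL means in F3 rats, with adjusted p of 0.539 and 0.373 (edgeR). The c subunit that forms the proton-driven ring is made from 3 genes, Atp5g1, Atp5g2 and Atp5g3, which encode the same mature protein. Atp5g1 had 729, 748 and 651 normalized counts in AL samples, 566, 645 and 724 in F1 samples, 662, 889 and 666 in F2 samples and 609, 629 and 597 in F3 samples. All F3 samples were below the AL samples, with an LFC of -0.22 ± 0.12 (adjusted p = 0.284, edgeR; 95% interval -0.47 to 0.04), and -0.27 ± 0.12 against F2 rats (adjusted p = 0.194, edgeR). The latter was -0.12 ± 0.10 without F2 sample j (adjusted p = 0.567, edgeR). Atp5g2 had 3048, 2623 and 2625 normalized counts in AL samples, 2403, 2634 and 2849 in F1 samples, 2756, 3535 and 2840 in F2 samples and 2505, 2757 and 2546 in F3 samples, and AL and F3 samples overlapped (LFC -0.09 ± 0.10, adjusted p = 0.652, edgeR). Against F2 rats its LFC was -0.23 ± 0.10 (adjusted p = 0.211, edgeR), and -0.10 ± 0.08 without F2 sample j (adjusted p = 0.555, edgeR). The 6 genes of the ring and the membrane part, these 3 with Atp5i, Atp5j2 and Atp5l (subunits e, f and g), had LFCs from -0.22 to -0.03 in F3 rats.

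Atp5s and Atp5sl carry the family name, but RefSeq now lists them as Dmac2l and Dmac2, and neither is a core subunit. Atp5sl was the only Atp5 gene with a positive LFC in F3 rats (0.11, adjusted p = 0.439, edgeR). Atp5s had 89.5 normalized counts on average, and its LFC intervals were the widest of the set.

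**Figure D2:**
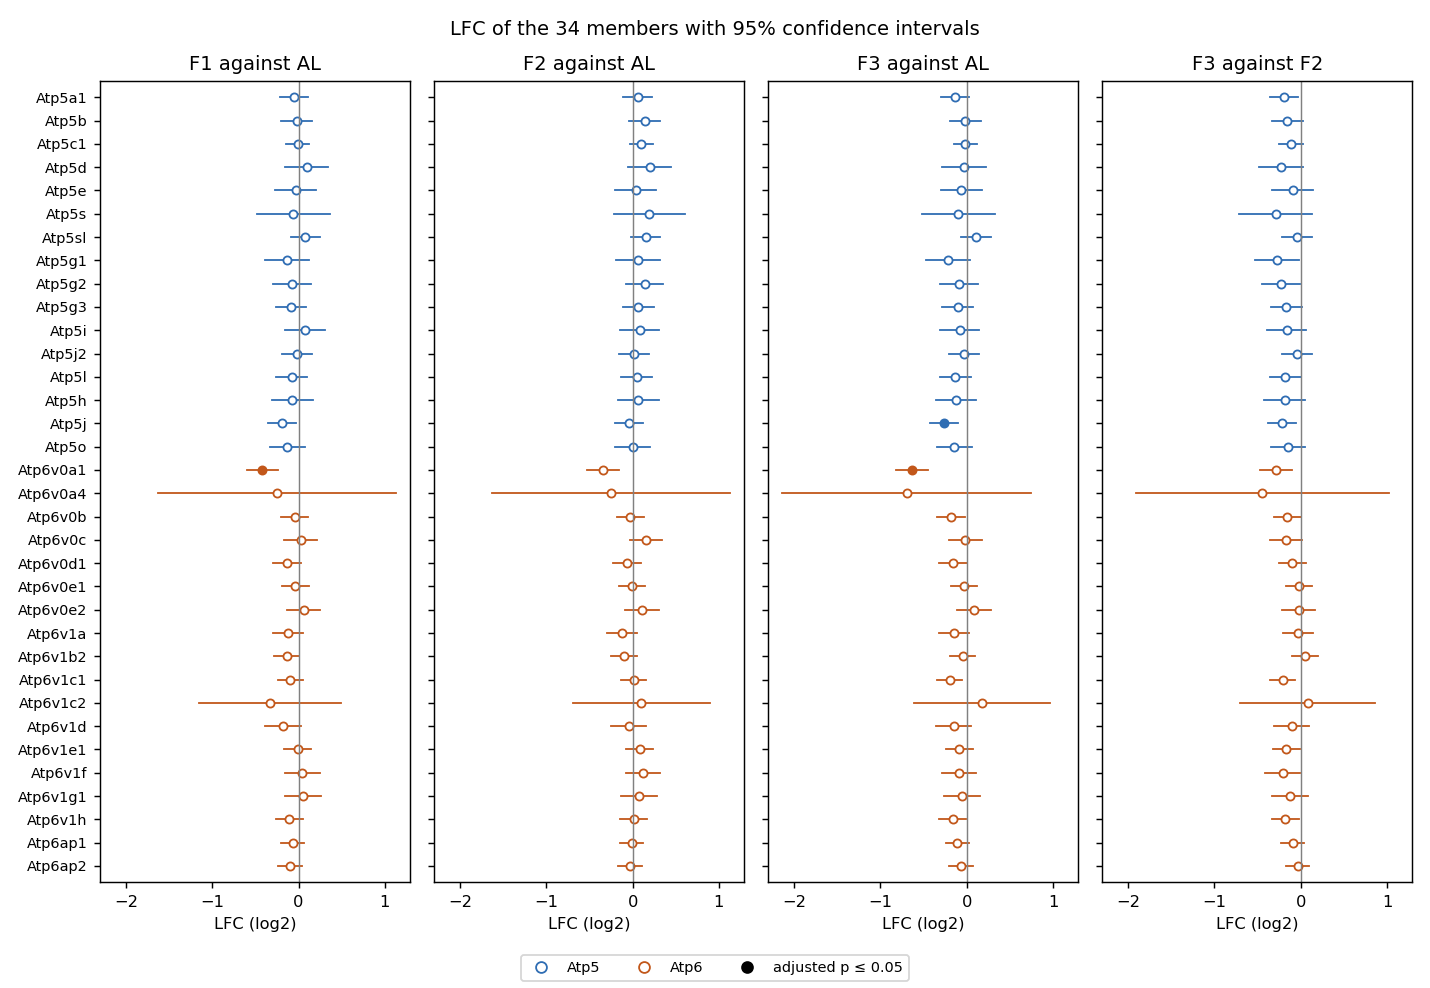
LFC (horizontal axes, log2) of each of the 34 members in F1, F2 and F3 rats against AL rats and in F3 against F2 rats, with 95% confidence intervals from the edgeR model; blue, Atp5; orange, Atp6; filled, adjusted p of at most 0.05. Only Atp6v0a1 (F1 and F3) and Atp5j (F3) are filled, and most points lie left of 0 in F3 rats.

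Of the V0 genes, Atp6v0a1 was called and the other 6 were not. Atp6v0b, the c'' subunit of the ring, had 1800, 1811 and 1807 normalized counts in AL samples, 1709, 1723 and 1830 in F1 samples, 1718, 1954 and 1645 in F2 samples and 1636, 1633 and 1505 in F3 samples. F3 samples were all below AL samples, with an LFC of -0.18 ± 0.07 (adjusted p = 0.130, edgeR; 95% interval -0.34 to -0.03), and passed only without F2 sample j (adjusted p = 0.0332, edgeR). Against F2 rats its LFC was -0.16 ± 0.07 (adjusted p = 0.233, edgeR), and -0.08 ± 0.06 without F2 sample j (adjusted p = 0.533, edgeR). Atp6v0d1, which couples the ring to the V1 stalk, had a mean 10.5% under that of AL rats in F3 rats (adjusted p = 0.195, edgeR). Atp6v0c, the main ring subunit, and the small subunits Atp6v0e1 and Atp6v0e2 had LFCs of -0.02, -0.03 and 0.09 in F3 rats. Atp6v0a4, the a isoform known from kidney, had 4 to 30 reads per sample, and its LFC of -0.70 in F3 rats had a 95% interval of -2.14 to 0.74, so that a change was not detectable at this depth.

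None of the 9 V1 genes was called. Atp6v1c1, subunit C, which regulates the attachment of V1 to V0, had 1629, 1620 and 1651 normalized counts in AL samples, 1585, 1526 and 1471 in F1 samples, 1711, 1710 and 1518 in F2 samples and 1441, 1364 and 1471 in F3 samples. All F3 samples were below the AL and F2 samples. Its LFC was -0.20 ± 0.07 against AL rats (adjusted p = 0.0772, edgeR; 95% interval -0.34 to -0.05) and -0.21 ± 0.07 against F2 rats (adjusted p = 0.0853, edgeR). The first passed with total-count scaling (adjusted p = 0.0374, edgeR), with only the 6 samples compared (0.0354) and without F2 sample j (0.0344), and the second passed with DESeq2 (adjusted p = 0.0474) and, with edgeR, without F2 sample k (adjusted p = 0.0467). Without F2 sample j the second was -0.18 ± 0.07 (adjusted p = 0.142, edgeR).

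Atp6v1h, subunit H, which is needed for ATP hydrolysis by the assembled pump, had 1270, 1189 and 1268 normalized counts in AL samples, 1262, 1091 and 1107 in F1 samples, 1210, 1269 and 1284 in F2 samples and 1121, 1062 and 1142 in F3 samples. Its F3 samples were below all AL and F2 samples, with LFCs of -0.16 ± 0.07 (adjusted p = 0.168, edgeR) and -0.18 ± 0.07 (adjusted p = 0.164, edgeR), the latter -0.17 ± 0.07 without F2 sample j (adjusted p = 0.225, edgeR). The catalytic subunit Atp6v1a and its partner Atp6v1b2 had F3 means 9.8% and 3.3% under the AL means. The stalk subunits Atp6v1d, Atp6v1e1, Atp6v1f and Atp6v1g1 had LFCs from -0.15 to -0.05 in F3 rats. Atp6v1c2, a second C isoform, had 17 to 57 reads per sample and could not be judged at this depth. The accessory genes Atp6ap1, which takes part in assembly, and Atp6ap2, known as the prorenin receptor, had LFCs of -0.11 and -0.07 in F3 rats (adjusted p = 0.306 and 0.560, edgeR).

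Most genes of both pumps had a slightly negative LFC after 1 and 3 days. In F1 rats 13 of 16 Atp5 and 14 of 18 Atp6 genes had a negative LFC, with medians of -0.06 and -0.10. The Atp5 median in F1 rats moved to -0.01 when AL sample i was left out and to -0.03 when F1 sample i was, and F1 sample k lay 0.02 (log2) above the AL mean. In F3 rats 15 of 16 Atp5 and 16 of 18 Atp6 genes had a negative LFC, with medians of -0.09 and -0.10. Over all genes the median LFC was near 0 in each comparison (-0.004 in F1 and -0.005 in F3 rats), and 50.8% and 50.9% of them had a lower mean than in AL rats. In F2 rats 15 of 16 Atp5 genes and 8 of 18 Atp6 genes had a positive LFC, with medians of 0.07 and -0.01.

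The groups did not overlap, with the fasted samples lower, for 11 of 34 members in F1 rats and 14 of 34 in F3 rats, beside 14.1% and 18% of all genes. They were 4 Atp5 and 7 Atp6 genes in F1 rats, and 6 Atp5 and 8 Atp6 genes in F3 rats. In F2 rats only Atp6v0a1 was lower in each sample than in AL rats and only Atp5c1, the central gamma shaft, was higher, beside 8.66% and 6.89% of all genes. No member was higher without overlap in F1 or F3 rats. Counting both directions, 28.7% of all genes in F1 rats and 35.6% in F3 rats did not overlap with AL rats. The SD of normalized counts in AL rats was 4.0% of the mean in the median member.

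**Figure D3:**
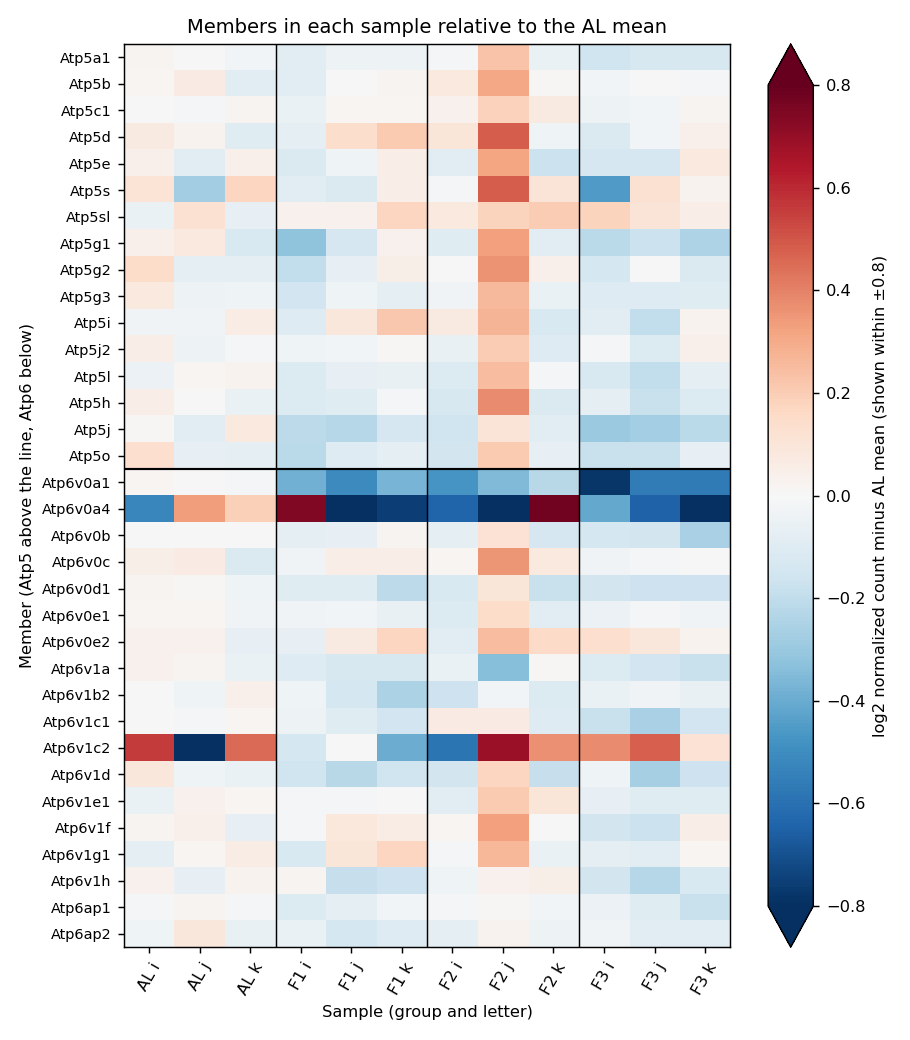
Log2 normalized count of each member (rows; Atp5 above the line, Atp6 below) in each of the 12 samples (columns) minus the mean of the 3 AL samples; blue is lower and red higher, and colours end at ±0.8. F2 sample j is red in nearly every Atp5 row, and Atp6v0a1 is blue in every fasted sample.

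F2 sample j set the position of the F2 rats for the Atp5 genes. It held the highest of the 12 values in 15 of 16 Atp5 genes and 10 of 18 Atp6 genes, compared with 20.1% of all genes. Its median deviation from the AL mean was 0.27 (log2) over the Atp5 genes, against -0.02 and -0.05 in F2 samples i and k, and 0.10 over the Atp6 genes, against -0.08 and -0.03. Without it, the median LFC of F2 against AL rats was -0.04 for Atp5 and -0.03 for Atp6, and the Atp6 median was 0.02 without F2 sample k. With F2 sample j left out, 5 members were called in F3 against AL rats, Atp5j, Atp6v0a1, Atp6v0b, Atp6v0d1 and Atp6v1c1, and 2 in F1 rats, Atp5j and Atp6v0a1, and the share of all genes called rose as well, to 2368 and 1451 of 13050 genes. The same model estimates the spread of all groups, F2 rats included.

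From F2 to F3 rats 32 of 34 members had a negative LFC, all 16 Atp5 genes among them, with a median of -0.16 beside -0.008 for all genes. No member was called by edgeR, beside 5.94% of all genes, and DESeq2 called Atp6v0a1 and Atp6v1c1, beside 9.52% of all genes. At an unadjusted p under 0.05 there were 10 of 34 members, beside 22% of all genes. For 12 of 34 members every F3 sample was below every F2 sample, beside 12.1% of all genes. Without F2 sample j, 27 of 34 members had a negative LFC and the median was -0.06. Then 5 members had an unadjusted p under 0.05, beside 2581 of 13050 genes. From F1 to F2 rats 32 of 34 members had a positive LFC, with a median of 0.10, and without F2 sample j there were 23, with a median of 0.02. No member was called by edgeR or DESeq2, beside 1.43% and 4.72% of all genes. The numbers of members at an unadjusted p under 0.05 were 0 and 1, beside 2252 and 2163 of 13050 genes. The comparisons of F2 with F1 rats and of F3 with F2 rats share the F2 samples, and those against AL rats share the AL samples.

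**Figure D4:**
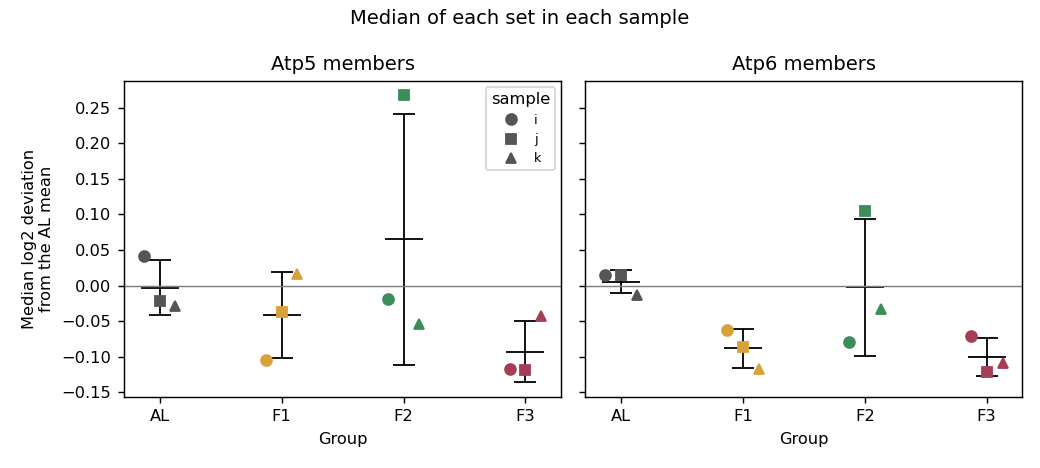
Median over the Atp5 members (left) and the Atp6 members (right) of the log2 deviation from the AL mean in each sample, by group, with 1 symbol per sample letter and bars for the mean ± SD of 3 samples. The 3 F3 samples lie between -0.12 and -0.04 for Atp5 and between -0.12 and -0.07 for Atp6, and F2 sample j lies above the other samples in both.

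The summed normalized counts of the Atp6 genes were 44693 to 45939 in AL samples, 41246 to 42098 in F1 samples, 41223 to 46743 in F2 samples and 39246 to 39913 in F3 samples. Those of the Atp5 genes were 45402 to 47790, 43396 to 46957, 45892 to 56724 and 43896 to 44935. The ratio of the Atp5 sum to the Atp6 sum was 1.03 ± 0.02 (SD, n = 3) in AL samples, 1.09 ± 0.04 in F1 samples, 1.14 ± 0.08 in F2 samples and 1.12 ± 0.01 in F3 samples. Every fasted sample was above every AL sample, but F1 sample i, at 1.048, was only just above AL sample i, at 1.045. Within the F2 rats the ratio was 1.21 in sample j, 1.14 in sample i and 1.06 in sample k. With Atp6v0a1 taken out of the sum, which was decided after its values had been seen, the ratio was 1.35 ± 0.02, 1.36 ± 0.04, 1.41 ± 0.07 and 1.36 ± 0.02, and the ranges of the 4 groups overlapped. The sums are given as a description, with no test.

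Genes that build or restrain ATP synthase were read beside its subunits. Of 3 such genes 1 was called in F1 and in F3 rats, beside 6.56% and 12% of all genes. It was Atpaf1, a chaperone that assembles the catalytic head by binding the beta subunit. Atpaf1 had 347, 296 and 361 normalized counts in AL samples, 510, 463 and 428 in F1 samples, 320, 299 and 335 in F2 samples and 545, 467 and 476 in F3 samples. F1 and F3 samples were all above AL and F2 samples, and AL and F2 samples overlapped. It rose in F1 rats (LFC 0.48 ± 0.10, adjusted p = 0.0157, edgeR) and in F3 rats (LFC 0.57 ± 0.10, adjusted p = 0.00331, edgeR), and its LFC in F2 rats was -0.07 ± 0.11 (adjusted p = 0.818, edgeR). It was lower in F2 than in F1 rats (LFC -0.56 ± 0.11, adjusted p = 0.0295, edgeR) and higher in F3 than in F2 rats (LFC 0.64 ± 0.10, adjusted p = 0.00624, edgeR). Without F2 sample j these were -0.51 ± 0.11 (adjusted p = 0.0507, edgeR) and 0.60 ± 0.11 (adjusted p = 0.0125, edgeR). The F3 results against AL and F2 rats passed under all 21 alternatives, whereas F1 against AL rats was lost without AL sample j, F1 sample i or F1 sample j (adjusted p = 0.0535, 0.0706 and 0.0585, edgeR).

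Atpaf2, which assists the alpha subunit, had means of 365 ± 27, 367 ± 14, 390 ± 60 and 385 ± 7 normalized counts in AL, F1, F2 and F3 rats. Atpif1, the inhibitor that stops ATP synthase from running in reverse, had means of 875 ± 19, 913 ± 106, 899 ± 167 and 845 ± 59. Neither passed any test, and the smallest adjusted p of both against AL rats was 0.708. In F3 rats the chaperone gene Atpaf1 was thus higher and the stalk gene Atp5j lower than in AL rats. The call for Atpaf1 held under all 21 alternatives and that for Atp5j in only 13 of 21.

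**Figure D5:**
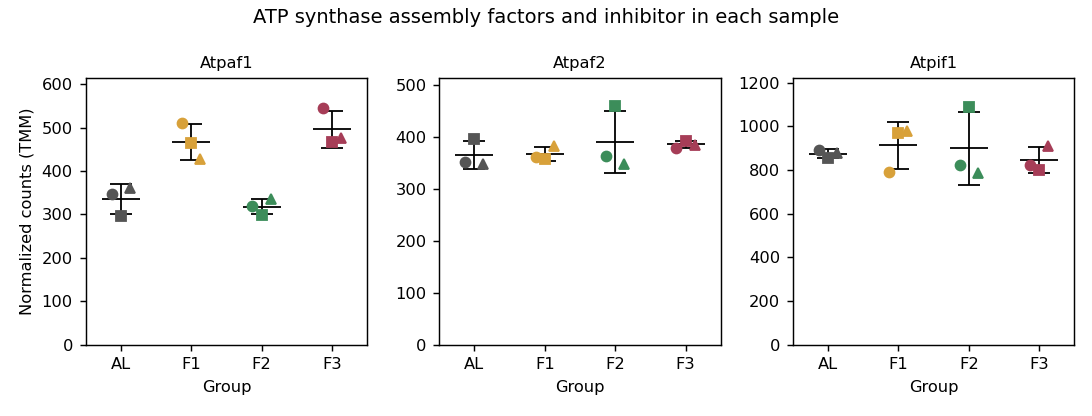
Normalized counts (vertical axes, starting at 0) of Atpaf1, Atpaf2 and Atpif1 in AL, F1, F2 and F3 rats, with 1 point per sample and bars for the mean ± SD of 3 samples. Atpaf1 was at least 428 in F1 and F3 samples and at most 361 in AL and F2 samples, and the groups overlap for Atpaf2 and Atpif1.

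Of 6 genes for the assembly and upkeep of the respiratory chain 1 rose in F1 and F3 rats, Acad9, which helps to assemble complex I, and none fell, beside the same shares of all genes. Its LFC was 0.46 ± 0.12 in F1 rats (adjusted p = 0.0390, edgeR), 0.51 ± 0.12 in F2 rats (adjusted p = 0.0668, edgeR; 0.44 without F2 sample j) and 0.81 ± 0.12 in F3 rats (adjusted p = 0.000796, edgeR). The F1 call was lost in 10 of 21 alternatives, with adjusted p up to 0.146 on leaving out AL sample i, and also without AL sample k, any F1 sample or any F3 sample, with total-count scaling and with only the 6 samples compared. Of 8 genes for lysosomal enzymes and membrane proteins 1 rose in F1 and F3 rats, Abcb9, a peptide transporter of the lysosomal membrane, with LFCs of 0.67 ± 0.15 and 0.61 ± 0.15 (adjusted p = 0.0170 and 0.0154, edgeR), and none fell, again beside 6.56% and 12% of all genes. Its LFC in F2 rats was 0.21 ± 0.15 (adjusted p = 0.612, edgeR). Both calls were lost when AL sample i or k was left out, the F1 call also without F1 sample i or j, and the F3 call also without F3 sample i or k, with adjusted p up to 0.0851 and 0.0850. None of 16 genes for lysosome biogenesis and positioning was called in any comparison, with a smallest adjusted p of 0.0539, and Ccdc115, an assembly factor of V-ATPase, had LFCs of 0.04 in both F1 and F3 rats (adjusted p = 0.824 and 0.844, edgeR).

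Near-identical gene copies bear on these levels. RefSeq lists 35 named pseudogenes for 14 of the 34 members, 30 of them for 10 Atp5 genes and 5 for 4 Atp6 genes, with 8 for Atp5l alone, and 14 members overlap another gene. The authors removed reads that matched more than once, so that levels of these members can be too low by an unknown share, and levels were not compared between genes.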

How the data were processed

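Polyadenylated RNA of CECs was sequenced in 12 samples from 4 groups, in 48 files. Per the labels and the study's methods, the authors aligned reads with STAR to Rnor_6.0 (Ensembl annotation), removed reads matching more than once and assigned reads to genes with HTSeq-count 0.5.3. The deposited values are raw read counts per gene, without normalization. Counts of the 4 technical replicates of a sample were summed. For 1 technical replicate (d) of F1 sample k the title and the treatment label disagree on the fast, and the title was followed.

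Genes with at least 1 read in each sample (13050 of 32624 features) were tested in R 4.3.3 with edgeR 4.0.16: TMM scaling, 1 model with 4 group means, quasi-likelihood tests with robust estimation, and Benjamini-Hochberg adjustment over all genes. Normalized counts are counts scaled by TMM to the mean library size, and LFC intervals are 95% t-intervals from the model. A pseudocount of 0.5 was used for log2 deviations. The procedure was tested on simulated data with planted changes larger than those of most members, so that recovery of smaller changes was not covered. Symbols came from the study's supplementary gene tables, of which a shortened copy was used, so subunit genes outside it and other respiratory chain genes were not analysed here. Promoter sequences are RefSeq's (GRCr8).

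The members and lists were chosen with earlier results of these data known. Every member is accounted for, and those past the threshold, with the 4 of each set with the smallest joint p, are described in full. Alternatives were DESeq2 1.42.0 (test and size factors), total-count and upper-quartile scaling, edgeR's filterByExpr or no filter, a fit of only the 6 samples of a comparison, a replicate block by sample letter, and each sample or technical replicate d left out. Alternatives for Atpaf1, Acad9 and Abcb9 and the sum without Atp6v0a1 were chosen after seeing the data.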

Additional observations from a re-analysis of the deposited data

Results flagged for a closer look

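The change of Atpaf1 differed between lengths of fasting by a direct test of one fasted group against another. Its LFC was -0.56 from F1 to F2 rats (adjusted p = 0.0295, edgeR) and 0.64 from F2 to F3 rats (adjusted p = 0.00624, edgeR), and all F2 samples were below all F1 and F3 samples. The first lost its call with only the 6 samples compared and when F1 sample i or j or any F2 sample was left out (adjusted p = 0.0506 to 0.135), and the second passed under all 21 alternatives. With edgeR no member of either pump passed such a test, whereas DESeq2 called Atp6v0a1 and Atp6v1c1 in F3 against F2 rats, and edgeR called 1 of them each without F2 sample i or k. Further, with 3 samples per group single samples were not tested as outliers.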

How the results depend on the processing

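The number of members called depended on F2 sample j and on the tool. DESeq2 called 1 member in F2 against AL rats, 2 in F3 against F2 rats and 2 in the joint test, where edgeR called 0, 0 and 1, beside 359, 1242 and 2090 of all genes with DESeq2 and 112, 775 and 1321 with edgeR. In F3 against AL rats, upper-quartile scaling left 1 member in place of 2, beside 1542 of 13050 genes. No filter also left 1, beside 1359 of 18780 genes. Total-count scaling and only the 6 samples compared each gave 3, beside 1619 and 2031 of 13050 genes. Leaving out each sample in turn gave 0 to 2 members for F1 against AL rats and 1 to 5 for F3 against AL rats. It gave 0 to 1 for F3 against F2 rats and 1 to 2 in the joint test. Of all 13050 genes, 308 to 1451, 792 to 2368, 164 to 783 and 739 to 1784 were called, in that order. The highest member counts of the first, second and last came without F2 sample j, where the most genes were called as well. F1 against AL rats was at 0 members without F1 sample j, beside 308 genes. F3 against F2 rats gave 1 member without F2 sample i (Atp6v0a1) and 1 without F2 sample k (Atp6v1c1), beside 693 and 632 of 13050 genes. Counts of members called in F2 against F1 rats stayed at 0 in every alternative, beside 0 to 616 of all genes.

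Total-count scaling moved the median LFC of all genes to -0.07 in F1 and -0.05 in F3 rats, and the median of the Atp5 members to -0.12 in F1 and -0.14 in F3 rats, and that of the Atp6 members to -0.16 and -0.14. Without single samples the medians ranged from -0.082 to -0.0078 for Atp5 in F1 rats (highest without AL sample i), from -0.125 to -0.041 for Atp5 in F3 rats (highest without AL sample i) and from -0.124 to -0.064 for Atp6 in F1 rats (highest without AL sample j). The LFC of Atp5j in F2 rats turned to 0.0076 without F2 sample i. With the sample letter as a replicate block, 1, 0, 2, 0, 0 and 1 members were called in F1, F2 and F3 against AL rats, F2 against F1 rats, F3 against F2 rats and the joint test, as without it. In the same order, 748, 129, 1511, 108, 711 and 1198 of 13050 genes were called with the block. The block medians were -0.06, 0.06 and -0.10 for Atp5 and -0.10, -0.01 and -0.10 for Atp6. The letters were not taken to pair the samples, since not every same-letter pair correlated above 0.1, a rule that cannot exclude pairing. Deviations from the group means correlated between -0.11 and 0.21 (median 0.05) over 18 same-letter pairs and between -0.25 and 0.28 (median -0.07) over 36 others. The fasted i samples correlated at 0.17 to 0.21 with each other. The deviations within a group sum to 0, so that these correlations depend on each other and do not decide on pairing. Among the members, low counts limited Atp6v0a4 and Atp6v1c2.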
